A study of Mus musculus with 12 samples.

Results

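The subject is a block of antiviral Trim genes on mouse chromosome 7: Trim6, Trim34a, Trim5, Trim12a, Trim34b, Trim12c, Trim30b, Trim30c, Trim30a and Trim30d, in their order along the chromosome. They are 10 of the 55487 gene identifiers in the count table, picked by gene symbol because the copies had been seen to differ in whether they are on or off between the genotypes, so their levels by genotype are a description and carry no test. The measurements are bulk RNA-seq counts from 12 mouse melanoma tumors. In 6 Arf6-null tumors the genotype is BrafCA;Cdkn2af/f;Arf6f/f, and in 6 wild-type tumors it is BrafCA;Cdkn2af/f, so both groups share the activated Braf allele and the floxed Cdkn2a gene. Arf6 encodes a small GTPase of membrane traffic between the cell surface and endosomes. What removed the floxed genes, the mouse strain and the age of the animals have no entry in the sources used here. The sample titles carry a different number for each tumor, but no label ties a tumor to an animal of its own. The p-values therefore measure only the scatter among these 12 samples, part of which may be technical.

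TRIM proteins carry a RING finger, B-box and coiled-coil in tandem, and many act as ubiquitin ligases. In primates, TRIM5 binds the capsid of incoming retroviruses and blocks infection, and the TRIM5 gene sits beside TRIM6, TRIM34 and TRIM22. In mice the same locus has expanded: Trim5, Trim12a, Trim12c and the Trim30 genes are relatives of primate TRIM5 that arose by duplication. Several genes of the block are known to be induced by interferon, in white blood cells in particular.

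All 10 symbols were found in GENCODE M21 on chromosome 7 of GRCm38, between Trim6 at chr7:104218793-104235152 and Trim30d at chr7:104470014-104507849, a span of 289.057 kb. Trim6, Trim34a and Trim34b lie on the plus strand and the other members on the minus strand. The promoter sequences from RefSeq (GRCm38.p6, 250 bases before to 50 after the start of the gene, read 5′ to 3′ on the strand of the gene) were searched on both strands for an ISRE-like motif, GAAA, any 2 bases, and GAAA again. An ISRE is the element that interferon-activated factors bind. The motif was present in 3.43% of 32817 promoters. It was present in the windows of Trim34a, Trim5, Trim12a, Trim12c, Trim30a and Trim30d, and these letters are not in the windows of Trim6, Trim34b, Trim30b and Trim30c. The Trim30b window (chr7:104358597-104358896) lies inside the gene as GENCODE M21 places it (chr7:104355382-104369884, minus strand). It does not cover that annotated start, so its lack of the motif does not speak for the annotated start. The promoters of Trim12a (chr7:104315446-104315745), Trim5 (chr7:104288057-104288356) and Trim12c (chr7:104353300-104353599) are printed because they are near-copies of each other, while the genes were at very different levels in the tumors. Those of Trim30a (the upstream of 2 starts, chr7:104465144-104465443) and Trim30d (chr7:104507800-104508099) are printed because these promoters are near-copies as well. Capitals mark the motif, which reads from the opposite strand here.
Trim12a: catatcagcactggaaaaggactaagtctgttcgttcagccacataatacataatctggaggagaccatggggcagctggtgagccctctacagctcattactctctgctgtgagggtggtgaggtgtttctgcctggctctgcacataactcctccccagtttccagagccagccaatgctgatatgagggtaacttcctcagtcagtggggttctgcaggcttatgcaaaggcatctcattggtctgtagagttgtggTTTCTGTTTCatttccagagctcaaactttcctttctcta
Trim5: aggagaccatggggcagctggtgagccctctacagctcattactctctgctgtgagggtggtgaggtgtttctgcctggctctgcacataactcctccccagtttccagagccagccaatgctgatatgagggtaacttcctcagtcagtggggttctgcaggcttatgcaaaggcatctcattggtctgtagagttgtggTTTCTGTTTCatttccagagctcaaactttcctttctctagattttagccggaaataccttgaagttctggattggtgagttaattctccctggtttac
Trim12c: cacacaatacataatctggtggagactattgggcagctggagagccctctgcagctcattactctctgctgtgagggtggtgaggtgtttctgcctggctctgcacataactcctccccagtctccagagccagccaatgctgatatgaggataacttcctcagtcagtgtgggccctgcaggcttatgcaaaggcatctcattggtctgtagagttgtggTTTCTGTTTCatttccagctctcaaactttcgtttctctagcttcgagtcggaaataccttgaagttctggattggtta
Trim30a: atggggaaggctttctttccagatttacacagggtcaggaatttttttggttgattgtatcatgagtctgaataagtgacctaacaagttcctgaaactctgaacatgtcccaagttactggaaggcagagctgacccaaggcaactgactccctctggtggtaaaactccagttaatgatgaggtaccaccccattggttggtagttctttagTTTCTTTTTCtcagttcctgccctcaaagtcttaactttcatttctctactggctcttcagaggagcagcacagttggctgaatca
Trim30d: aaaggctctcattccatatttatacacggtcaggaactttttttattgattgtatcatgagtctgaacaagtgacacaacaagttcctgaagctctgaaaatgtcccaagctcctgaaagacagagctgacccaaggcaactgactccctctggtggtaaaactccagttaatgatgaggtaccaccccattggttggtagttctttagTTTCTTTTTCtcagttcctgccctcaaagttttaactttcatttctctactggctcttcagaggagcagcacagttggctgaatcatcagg

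The Trim5 and Trim12a promoters were identical over all 241 bases that aligned. Trim12c matched Trim12a at 247 of 260 aligned bases and Trim5 at 263 of 280, and all 3 windows hold the same motif, TTTCTGTTTC. Trim30a and Trim30d matched at 276 of 295 aligned bases and hold TTTCTTTTTC. These are sequences of the reference mouse; the sequence of the tumors was not examined here.

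Totals ran from 21007954 to 45688253 counts in the Arf6-null libraries and from 22211738 to 30326419 in the wild-type libraries. Levels are CPM, counts set to a common scaled library total. Arf6 was at 18.3 ± 3.73 CPM in Arf6-null and 111 ± 24.9 CPM in wild-type tumors (SD, n = 6 each), with no overlap. The genotypes also differ in library numbering, 19 to 24 in Arf6-null and 1 to 6 in wild type, and what goes with that numbering cannot be told apart from the genotype. Of 10 melanocyte markers 3 had enough counts to be tested, their list summed to 19.2 to 133 CPM in Arf6-null and 21.6 to 116 CPM in wild-type tumors, and Mlana had no count in any library. The sum of 4 Y-linked genes was 0.444 CPM in Arf6-null replicate 6 and 147.5 to 218.2 CPM in the other Arf6-null tumors, and 0 to 0.261 CPM in wild-type replicates 3, 5 and 6 and 22.3 to 248 CPM in the other wild-type tumors. Skeletal muscle markers summed to 6.28 to 58.3 CPM in Arf6-null and 24.4 to 2200 CPM in wild-type tumors. The 15 leukocyte markers summed to 1070 to 1890 CPM in Arf6-null and 789 to 2220 CPM in wild-type tumors.

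Trim12a and Trim5 were the copies that separated the genotypes without overlap. Trim12a was on in every Arf6-null tumor and close to absent in wild type, while its relative Trim12c was abundant in both. Inbred mouse strains are known to differ in this gene family, and no source used here gives the strain of either group, so an inherited difference at the locus cannot be told apart from the genotype. A gene was taken as detected in a library above 3 counts. By that rule Trim12a was detected in 6 of 6 Arf6-null and 0 of 6 wild-type libraries, and Trim5 in 6 Arf6-null and 3 wild-type libraries. Trim34a, Trim12c, Trim30b, Trim30a and Trim30d were detected in all 12 libraries, Trim34b and Trim30c in 5 Arf6-null and 6 wild-type libraries, and Trim6 in 5 of each. The numbers for genes of few counts depended on the setting. Under 3 alternatives Trim5 was detected in 0 to 6 wild-type libraries, Trim6 in 1 to 6 Arf6-null libraries and Trim12a in 0 to 2 wild-type libraries. In each of these settings Trim12a and Trim5 were detected in all 6 Arf6-null libraries. All 10 members passed the filter on low counts, Trim12a and Trim5 only because of their Arf6-null libraries. Over the whole table, 4 of 55487 identifiers (0.00721%) were above 3 counts in all 6 Arf6-null libraries and in no wild-type library. Every Arf6-null library lay above every wild-type library for 2 of 10 members beside 1.15% of tested genes, and the reverse for 0 of 10 beside 1.21%. Because the members were chosen on this contrast, nothing is read from these shares.

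**Figure D1:**
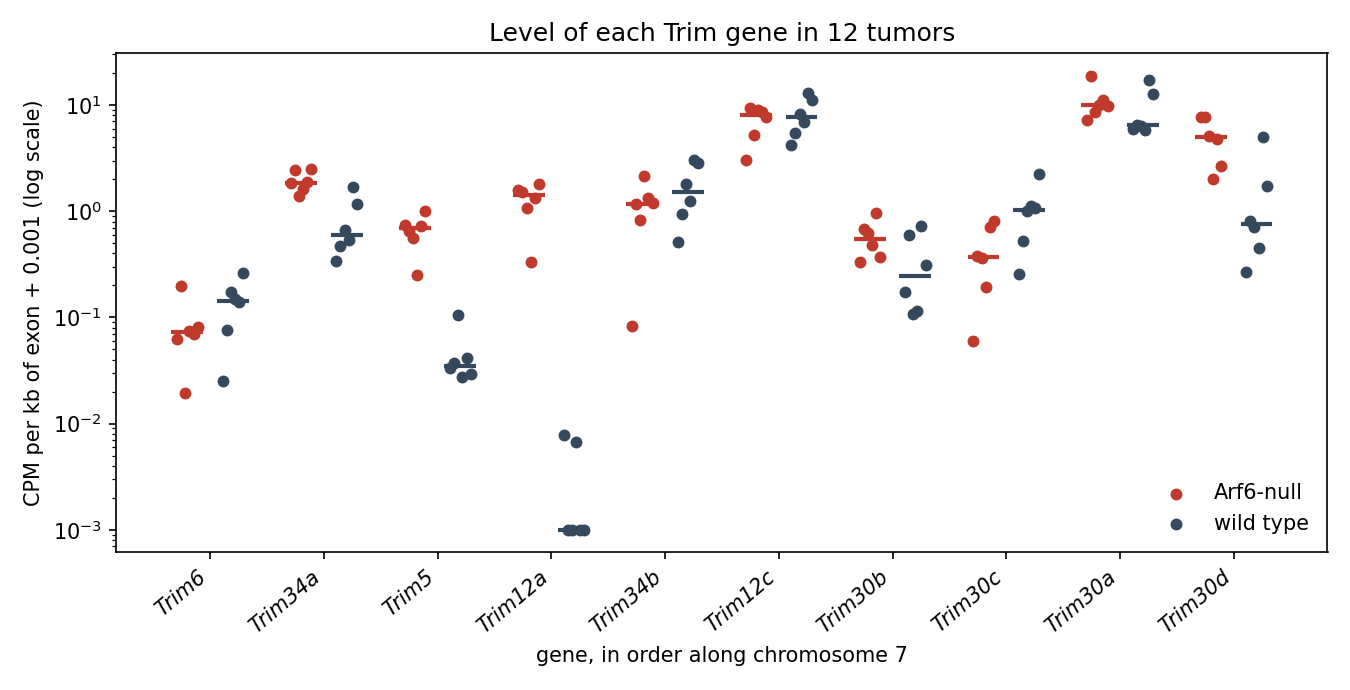
Level of each member in each tumor as CPM per kilobase of exon plus 0.001, on a log scale, with Arf6-null to the left of wild type and a bar at the median (n = 6 each). Trim12a and Trim5 are the members whose genotypes do not overlap, and 4 of the wild-type tumors have no Trim12a count.

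Trim12a (chr7:104299894-104315466, minus strand), a mouse relative of primate TRIM5, had a lowest level of 1.92 CPM, a median of 8.21 CPM and a highest level of 10.3 CPM in Arf6-null tumors, against 0, 0 and 0.0398 CPM in wild-type tumors. In counts these were 182, 364, 208, 58, 337 and 395 in Arf6-null replicates 1 to 6, against 1 count each in wild-type replicates 1 and 4 and 0 in the other wild-type libraries. Every Arf6-null library was high, and every wild-type library lay below the 3-count limit of detection. Wild-type replicates 1, 2 and 6, outside the 3 wild-type libraries rich in muscle transcripts, held 1, 0 and 0 Trim12a counts. The sums of 1544 and 2 counts give a ratio of 612.9 per library total, with a 95% counting interval of 169.4 to 5065. This interval covers counting error of the pooled counts only, not the spread among tumors, and is no test of the genotypes. Gm15133, an antisense gene that overlaps Trim12a by 448 bases, had 70 counts over the Arf6-null libraries and 0 over the wild-type libraries. With the wild-type group set to a floor of 3 counts this is 18.52-fold, and the lower 95% counting bound of the ratio is 14.67. That bound has the same limit. Arf6-null replicate 4 also had 0 Gm15133 counts. The strand setting of the counting is not given in the sources used here, so reads of Trim12a and Gm15133 cannot be told apart with certainty.

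Trim5 (chr7:104263386-104288094, minus strand), the mouse gene that carries the name of the primate capsid-binding factor, showed the same order at lower levels. It was at 0.925, 2.55 and 3.71 CPM (lowest, median, highest) in Arf6-null tumors, against 0.0986, 0.126 and 0.384 CPM in wild-type tumors. The genotypes did not overlap, although wild-type libraries gave 3 to 9 counts each. Means were 2.42 ± 0.916 CPM in Arf6-null and 0.1645 ± 0.109 CPM in wild-type tumors (SD, n = 6 each), a log2 fold change of 3.87 (SE 0.43). Of the 512 and 26 counts, part can come from reads that also match Trim12c or Trim12a: of all 50-base stretches of the Trim5 transcripts, 23.5% are also in Trim12c and 7.87% in Trim12a.

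Trim12c (chr7:104338754-104353362, minus strand), which in mice has been reported to raise NF-kB and interferon signalling, was second among the members in both genotypes by mean level per kilobase of exon. It was at 11.2, 30.4 and 35.05 CPM (lowest, median, highest) in Arf6-null tumors, against 15.7, 28.6 and 48.6 CPM in wild-type tumors. The ranges overlapped, and the log2 fold change was -0.19 (SE 0.32). The wild-type libraries held 394 to 1302 Trim12c counts while Trim12a was at 0 or 1, so the low Trim12a values were not matched by a low level of its copy.

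Among the other pairs of copies, Trim34a (chr7:104244457-104262234, plus strand) was higher in Arf6-null tumors. The primate TRIM34 protein takes part in capsid restriction together with TRIM5. Trim34a was at 3.59, 4.82 and 6.46 CPM (lowest, median, highest) in Arf6-null tumors, against 0.875, 1.54 and 4.37 CPM in wild-type tumors. Of the Arf6-null libraries 4 lay above every wild-type library, wild-type replicate 5 reached into the Arf6-null range, and the log2 fold change was 1.264 (SE 0.38). Trim34b (chr7:104329471-104336909, plus strand) was at 0.151, 2.17 and 3.995 CPM in Arf6-null tumors, against 0.954, 2.83 and 5.60 CPM in wild-type tumors. Its lowest value, in Arf6-null replicate 1, came from 3 counts, and the log2 fold change was -0.62 (SE 0.59). Among members, Trim34a and Trim34b are the hardest to tell apart by sequence, since 39.8% of the 50-base stretches of Trim34a are also in Trim34b and 56.8% of those of Trim34b are in Trim34a.

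Trim30a (chr7:104409025-104465193, minus strand) had the highest mean level per kilobase of exon in both genotypes. In mice its protein promotes the breakdown of TAB2 and TAB3, adaptors of the kinase TAK1, and so dampens NF-kB signalling. It was at 29.8, 40.9 and 77.7 CPM (lowest, median, highest) in Arf6-null tumors, against 24.1, 26.4 and 71.3 CPM in wild-type tumors. Wild-type replicates 5 and 6, at 71.3 and 52.3 CPM, lay within the Arf6-null range, the other wild-type tumors lay below all Arf6-null tumors, and the log2 fold change was 0.26 (SE 0.32). Trim30d was at 7.59, 18.7 and 29.2 CPM in Arf6-null tumors, against 0.994, 2.85 and 18.9 CPM in wild-type tumors. Here 3 Arf6-null libraries lay above every wild-type library, wild-type replicate 5 was the high one of its group, and the log2 fold change was 1.74 (SE 0.67). Gm16464, a pseudogene within Trim30d on the same strand, had 67 counts over the Arf6-null and 41 over the wild-type libraries.

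The remaining members were low and overlapped between genotypes. Trim30b (chr7:104355382-104369884, minus strand) averaged 4.32 ± 1.74 CPM in Arf6-null and 2.55 ± 1.99 CPM in wild-type tumors. Trim30c (chr7:104382065-104400837, minus strand) averaged 0.719 ± 0.499 CPM in Arf6-null and 1.77 ± 1.18 CPM in wild-type tumors. Trim6, whose human protein builds unanchored ubiquitin chains that activate the kinase IKKε in interferon signalling, averaged 0.409 ± 0.294 CPM in Arf6-null and 0.669 ± 0.402 CPM in wild-type tumors (SD, n = 6 each). The log2 fold changes were 0.76 (SE 0.50) for Trim30b, -1.28 (SE 0.58) for Trim30c and -0.69 (SE 0.55) for Trim6. Over the 10 members 6 log2 fold changes were positive with a median of 0.51, beside a median of -0.027 over all 16225 genes tested, so members with lower means in Arf6-null tumors stood beside members with higher means within the same 289.057 kb.

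**Figure D2:**
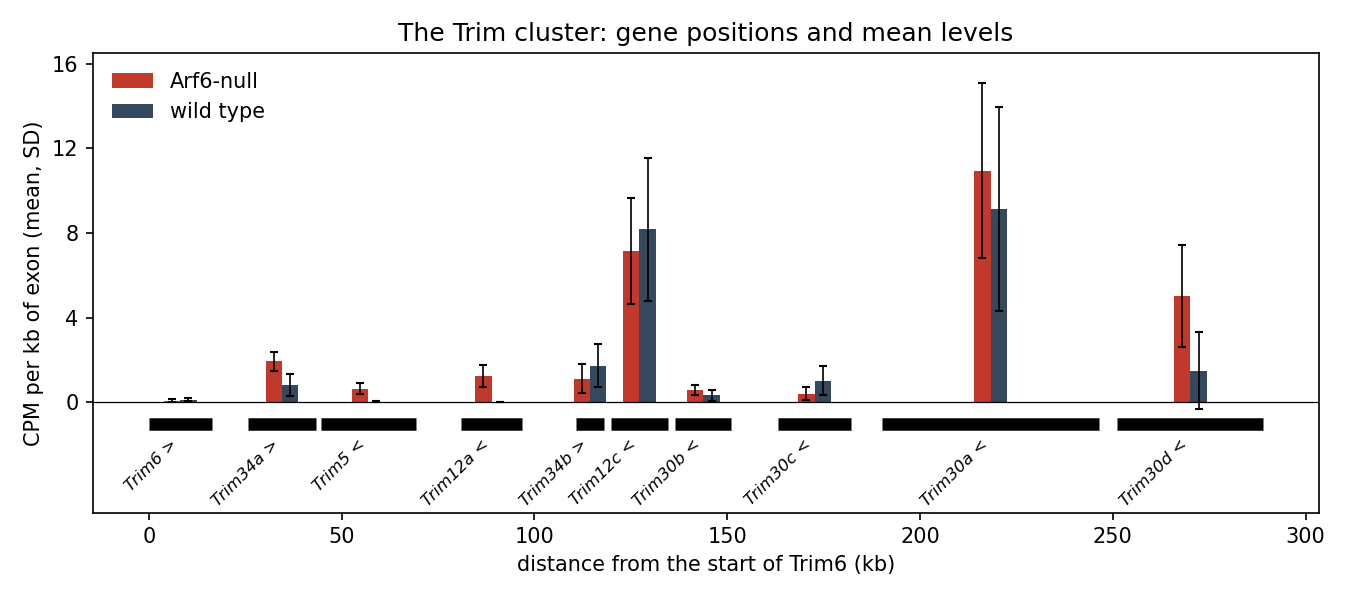
Position of each member in kilobases from the start of Trim6, with an arrowhead for its strand, and above it the mean CPM per kilobase of exon in Arf6-null (left bar) and wild-type tumors (right bar); error bars are SD (n = 6 each). Trim12c and Trim30a are tall in both genotypes, and the wild-type bars of Trim5 and Trim12a are near 0.

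Scaled per kilobase of exon, so that genes can be set against each other, Trim30a and Trim12c led in both genotypes and the order below them differed. In Arf6-null tumors the levels were 10.9 ± 4.12 for Trim30a, 7.14 ± 2.51 for Trim12c, 5.03 ± 2.43 for Trim30d, 1.94 ± 0.447 for Trim34a, 1.27 ± 0.520 for Trim12a and 1.13 ± 0.677 for Trim34b. Below them came Trim5 at 0.655 ± 0.248, Trim30b at 0.574 ± 0.231, Trim30c at 0.419 ± 0.291 and Trim6 at 0.0835 ± 0.0601 CPM per kilobase (SD, n = 6). Neighbours in this order were further apart than the larger of their SDs only for Trim30d over Trim34a, Trim34a over Trim12a, and Trim30c over Trim6. In wild-type tumors the levels were 9.13 ± 4.81 for Trim30a, 8.18 ± 3.38 for Trim12c, 1.73 ± 1.03 for Trim34b, 1.501 ± 1.81 for Trim30d, 1.03 ± 0.685 for Trim30c and 0.808 ± 0.515 for Trim34a. Below them came Trim30b at 0.339 ± 0.264, Trim6 at 0.137 ± 0.0822, Trim5 at 0.0446 ± 0.0295 and Trim12a at 0.00209 ± 0.00327 CPM per kilobase (SD, n = 6). Here the neighbours further apart than the larger SD were Trim12c over Trim34b, Trim6 over Trim5, and Trim5 over Trim12a. Trim12a stood in the middle of the order in Arf6-null tumors and last in wild-type tumors. Trim30c, Trim34b, Trim6 and Trim30b stood lower in the Arf6-null than in the wild-type order. The sum of all members was 112.9 ± 29.6 CPM in Arf6-null and 84.2 ± 43.3 CPM in wild-type tumors.

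The share that each copy takes of its pair is formed within a library, so the scaling of library totals does not enter it. Trim12a made up 23.3 ± 12.8% of the Trim12a and Trim12c counts in Arf6-null tumors and 0.0632 ± 0.106% in wild-type tumors. Trim34a made up 72.2 ± 14.9% of the Trim34a and Trim34b counts in Arf6-null tumors and 40 ± 5.23% in wild-type tumors. Trim30d made up 29.3 ± 12.1% of the Trim30d and Trim30a counts in Arf6-null tumors and 10.3 ± 5.86% in wild-type tumors (SD, n = 6 each). For the first 2 pairs every Arf6-null share was above every wild-type share. For Trim30d the 15.5% and 19.9% of Arf6-null replicates 4 and 6 lay below the 21% of wild-type replicate 5. Trim30c made up 0.336 to 3.31% of the Trim30c and Trim30a counts in Arf6-null tumors, against 1.74 to 7.32% in wild-type tumors. Trim30b made up 6.22 to 13.6% of the Trim30b and Trim30a counts in Arf6-null tumors, against 2.99 to 14.6% in wild-type tumors. Because the members were chosen on this contrast, the shares by genotype are a description only.

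Within the Arf6-null group the shares ranged widely. Replicate 1 had the highest share and replicate 4 the lowest for Trim12a, Trim34a and Trim30d, a pattern noticed after the values were seen. Replicate 1 also had the lowest level of each partner in its group, 11.2 CPM of Trim12c, 0.151 CPM of Trim34b and 29.8 CPM of Trim30a. The pattern did not extend to other pairs: Trim30c made up 0.336% of the Trim30c and Trim30a counts in replicate 1, the lowest share, and Trim30b made up 13.6% of the Trim30b and Trim30a counts in replicate 5, the highest, and 6.22% in replicate 2, the lowest. For Trim12a these shares were 44.8% (95% exact Clopper-Pearson interval 39.9 to 49.8%) in replicate 1 and 5.39% (4.12 to 6.91%) in replicate 4. For Trim34a they were 96.9% (91.3 to 99.4%) and 51.0% (44.6 to 57.4%), and for Trim30d 49.5% (46.6 to 52.4%) and 15.5% (13.7 to 17.5%). The other Arf6-null tumors lay between 19.2 and 26.3% for Trim12a. Intervals cover counting error only.

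**Figure D3:**
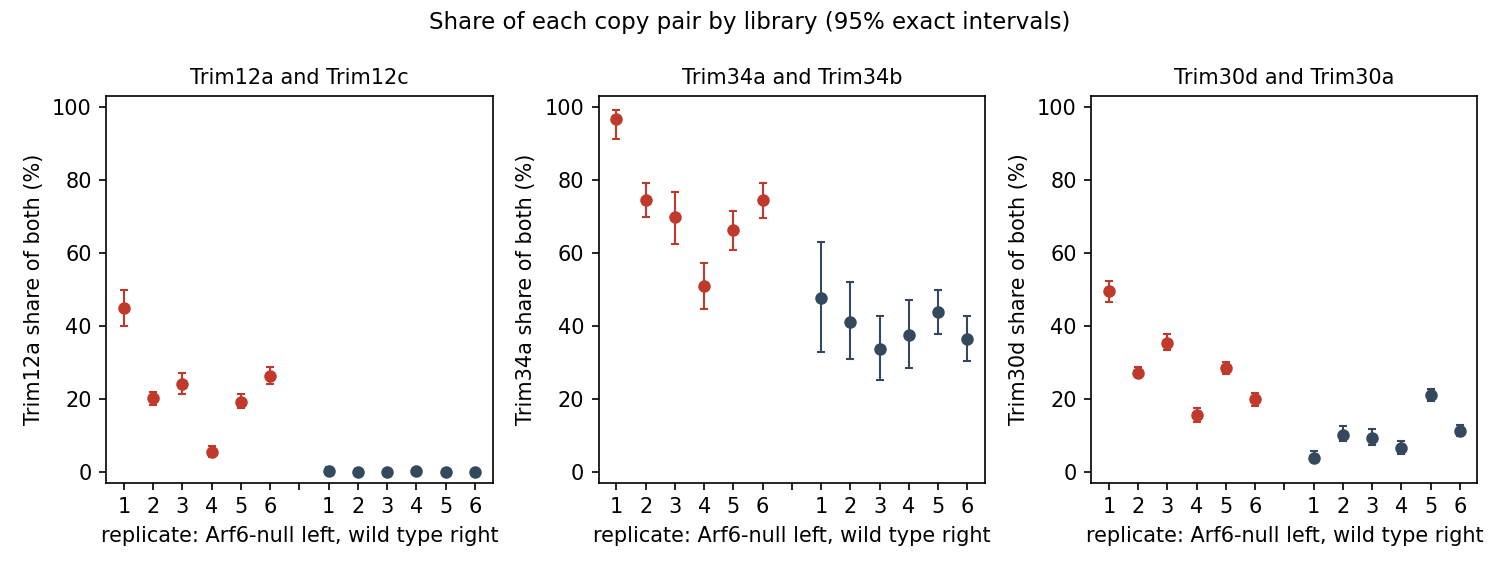
Share in percent of the counts of each pair of copies that went to the first copy, by replicate, with Arf6-null tumors on the left and wild-type tumors on the right; bars are 95% exact intervals. Arf6-null replicate 1 is highest and replicate 4 lowest in each panel, and the wild-type shares of Trim12a are at or near 0.

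How far counts can be assigned to one copy was read from the GENCODE M21 transcripts. The share of 50-base stretches found in no other annotated gene was 98.5% for Trim6, 40.3% for Trim34a, 63.4% for Trim5, 89.5% for Trim12a, 43.2% for Trim34b and 66.3% for Trim12c. It was 98.5% for Trim30b, 99.3% for Trim30c, 94.0% for Trim30a and 92.5% for Trim30d. Trim12a is thus mostly distinct in sequence. At 50 bases most of the Trim34a and Trim34b sequence is shared, and with longer stretches less is. The read length and the handling of reads that match several places are not stated in the sources used here, so counts of Trim34a, Trim34b, Trim5 and Trim12c carry this uncertainty.

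**Figure D4:**
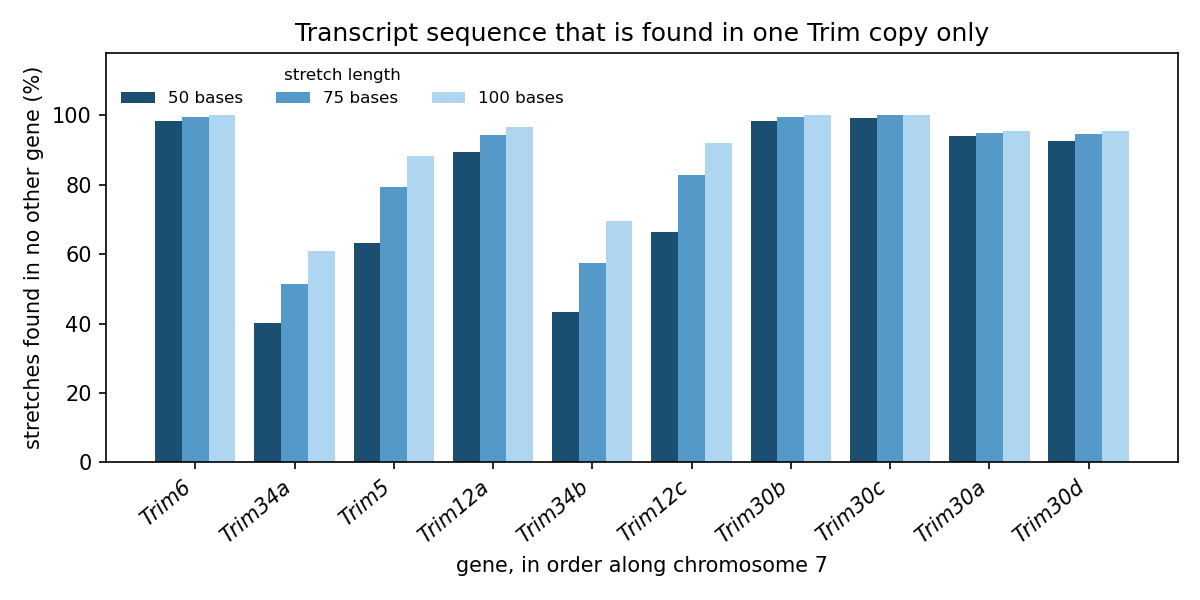
Share in percent of the stretches of each member's transcripts that occur in no other annotated gene, for stretches of 50, 75 and 100 bases. Trim34a and Trim34b are lowest at each length, with 61.0% and 69.5% at 100 bases, and Trim12a reaches 96.7%.

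Variation within the genotypes was not used to choose the members and could be tested. Each tumor was given a type I interferon score, the mean log2 CPM of 30 known target genes that include no member. It ran from 4.74 to 5.66 in Arf6-null and from 3.20 to 5.64 in wild-type tumors. The slope on this score, with genotype in the model, was fitted for all genes with edgeR's quasi-likelihood F test, and 126 of 16225 genes passed an adjusted p of 0.05 (0.777%), 121 with a positive slope (0.746%) and 5 with a negative slope (0.0308%). None of the members passed: 0 of 10 were called, 5 of 10 were under 0.05 before adjustment beside 2226 of all 16225 genes, limma-voom called 0 and DESeq2 called 3 (Trim34a, Trim30a and Trim30d). Trim5 and Trim12a are among the 10, but their wild-type counts are too few for this test to decide on them. The slopes of 8 members were positive, with a median of 0.598 log2 units per unit of score beside -0.01 over all genes, while 17 of 25 interferon-gamma targets were called with a median of 1.40.

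The members nearest to the threshold were Trim34a and Trim30a. The level of Trim34a had a slope of 0.71 log2 units per unit of score (SE 0.16, edgeR adjusted p = 0.0716) and that of Trim30a 0.59 (SE 0.14, edgeR adjusted p = 0.106). Trim30d had a slope of 1.16 (SE 0.34, edgeR adjusted p = 0.178), and Trim12c one of 0.53 (SE 0.17, edgeR adjusted p = 0.213). Trim34b, Trim30b, Trim30c and Trim6 had slopes of 0.83 (SE 0.35), 0.70 (SE 0.32), 0.60 (SE 0.37) and 0.54 (SE 0.37). Without wild-type replicates 5 and 6, the wild-type tumors with the highest interferon score, the slope was 0.38 for Trim34a, 0.28 for Trim30a, 0.04 for Trim30d and 0.52 for Trim30c, all smaller than with them. It was larger for Trim12c (0.58), Trim34b (1.19), Trim30b (0.85) and Trim6 (0.74).

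For Trim5 and Trim12a the wild-type counts, at most 9 in a library, are too few to show a slope within wild type, so their values are only described. Wild-type replicates 5 and 6 had interferon scores of 5.64 and 5.52, at the upper end of the Arf6-null range, with 0 Trim12a counts in either and 4 and 3 Trim5 counts. In the same tumors Trim12c was at 48.6 and 41.7 CPM and Trim30a at 71.3 and 52.3 CPM. Arf6-null replicate 4 had a score of 5.49 and, at 1.92 CPM of Trim12a and 0.925 CPM of Trim5, the lowest level of both in its group. Whether interferon has a part in the difference of Trim12a and Trim5 between genotypes was not tested. With the score in the model, the log2 fold changes of the other 8 members were all lower than without it: 0.85 for Trim34a, 1.54 for Trim30d, 0.41 for Trim30b, -0.12 for Trim30a, -0.59 for Trim12c, -1.09 for Trim6, -1.22 for Trim34b and -1.70 for Trim30c. That of Trim30a changed sign, from its 0.26 without the score. Those of Trim12a and Trim5 were higher with the score, at 9.66 against 8.83 and 3.95 against 3.87, on few wild-type counts.

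**Figure D5:**
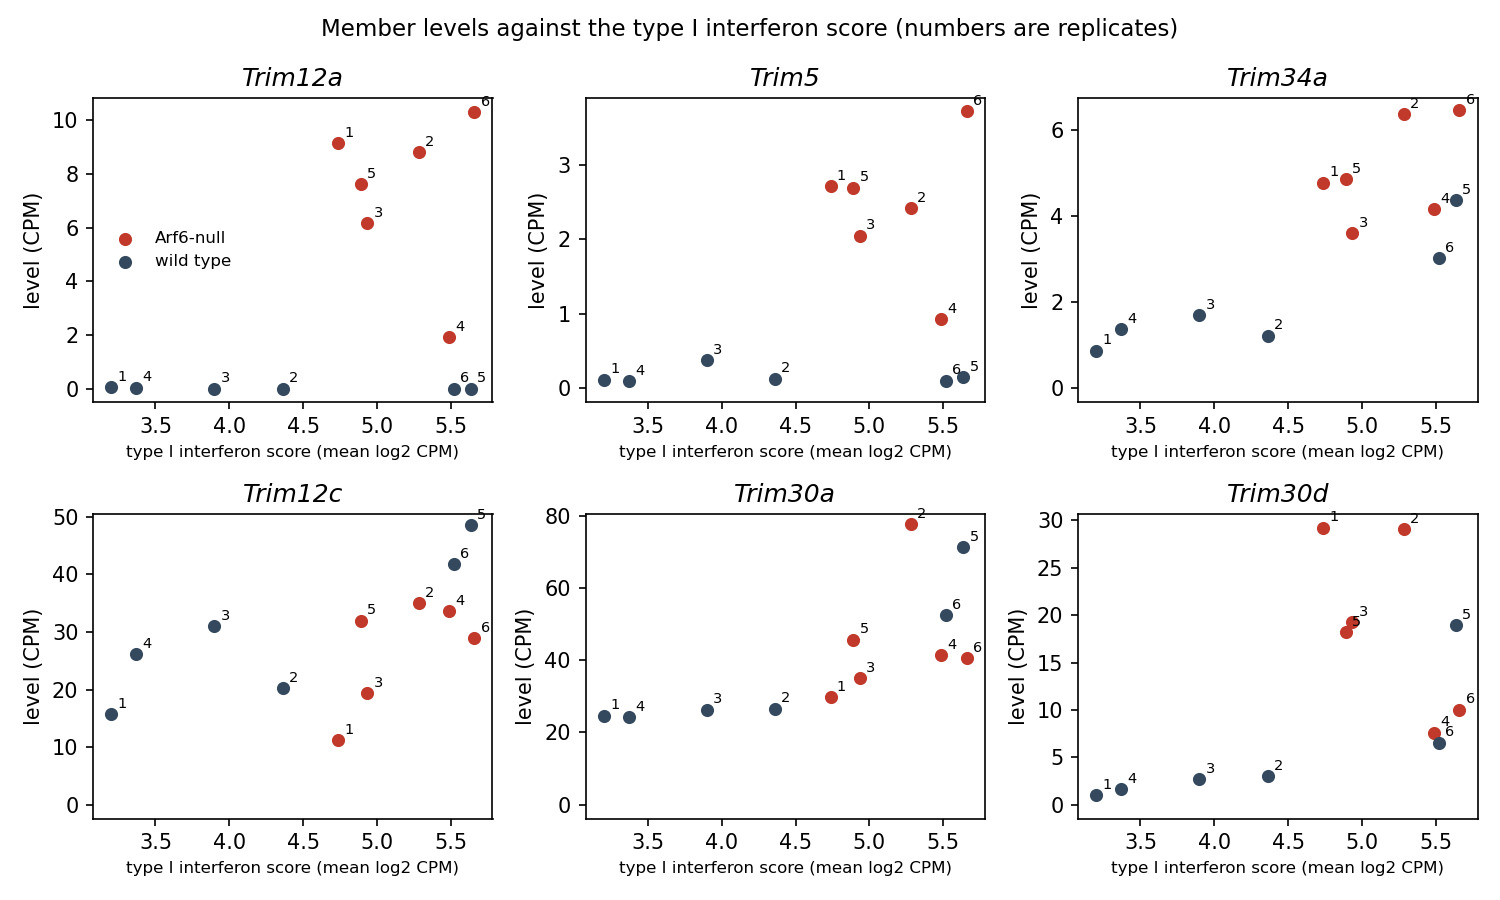
Level in CPM of 6 members in each tumor against the type I interferon score (mean log2 CPM of 30 target genes), with replicate numbers beside the points. Wild-type replicates 5 and 6 lie at scores of 5.64 and 5.52 with no Trim12a count, while their Trim12c and Trim30a levels are the highest of their group.

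A difference of the slope between genotypes was tested by an interaction term. By edgeR no gene of 16225 (0%) passed, 714 were under 0.05 before adjustment, and of the members 0 were called by edgeR, DESeq2 or limma-voom. For Trim5 and Trim12a this test cannot decide, since their wild-type counts are too few to show a slope. Trim30d was the one member under 0.05 before adjustment. Its slope was -1.46 (SE 0.70) within Arf6-null and 1.42 (SE 0.22) within wild-type tumors, a difference of -2.88 (SE 0.76, edgeR adjusted p = 0.997), which did not pass. For Trim30a the slopes were 0.51 (SE 0.58) within Arf6-null and 0.60 (SE 0.10) within wild-type tumors.

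The same was done with a leukocyte score, the mean log2 CPM of 15 marker genes such as Ptprc. In bulk tumors fewer cells of a type and less RNA per cell cannot be told apart. Of all genes 153 were called (0.943%), all with a positive slope. Trim30a was the 1 member of 10 that passed, and 4 of 10 were under 0.05 before adjustment, beside 1635 of all 16225 genes. Its level rose 1.99-fold per unit of leukocyte score (slope 0.99, SE 0.18, edgeR adjusted p = 0.0302), with slopes of 1.04 (SE 0.40) within Arf6-null and 0.98 (SE 0.20) within wild-type tumors. The call was lost without any one of wild-type replicates 2, 4, 5 and 6 or Arf6-null replicates 1, 2 and 4, with slopes from 0.89 to 0.9996. The slopes were 0.85 for Trim34a (edgeR adjusted p = 0.291), 0.67 for Trim12c (edgeR adjusted p = 0.455) and 1.28 for Trim30d (edgeR adjusted p = 0.405), and none of these passed. Trim5 had a slope of -0.47, given as a description only. Trim5 and Trim12a are among the 10, but their wild-type counts are too few to show a slope within wild type.

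Genes around the cluster were compared between genotypes in the fit over all genes, in which 186 of 16225 (1.15%) were called, 95 higher (0.586%) and 91 lower (0.561%) in Arf6-null tumors. Of 32 tested genes within 2 Mb of its ends, 1 was called. This was Mrpl17 (chr7:105803206-105811099), a protein of the mitochondrial ribosome, 1299 kb beyond the cluster. It rose to 79.6 ± 6.62 CPM in Arf6-null tumors, against 59.3 ± 1.59 CPM in wild-type tumors (SD, n = 6 each; log2 fold change 0.42, SE 0.07, edgeR adjusted p = 0.0239), and the call was lost without wild-type replicate 1, 3, 4 or 6 or Arf6-null replicate 1 or 2. The nearest tested genes are Hbb-bs, an adult beta-globin 391 kb before the cluster, and Gm5900, 442 kb after it. Hbb-bs was at 90.8 ± 101.4 CPM in Arf6-null and 42.9 ± 42.7 CPM in wild-type tumors (edgeR adjusted p = 0.461), and Gm5900 at 2.26 ± 0.559 and 2.87 ± 0.412 CPM in Arf6-null and wild-type tumors (edgeR adjusted p = 0.338).

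The wider interferon and restriction pathways were described with the same fit, in which 3799 of the 16225 genes were under 0.05 before adjustment. Of 30 type I interferon targets 0 were called by edgeR, 1 by DESeq2 and 3 were under 0.05 before adjustment; 29 log2 fold changes were positive, with a median of 0.5 beside -0.027 over all genes. Of 25 interferon-gamma targets 0 were called, 0 were under 0.05 before adjustment and 24 were positive, with a median of 0.55. Of 18 retroviral restriction factors 0 were called and 4 were under 0.05 before adjustment, with a median of 0.06. The one with the smallest p, named after its value was seen, was Isg20, an interferon-induced exonuclease, at 36.3 ± 8.17 CPM in Arf6-null and 15.3 ± 6.18 CPM in wild-type tumors (SD, n = 6 each; edgeR adjusted p = 0.0544). Of 21 genes of NF-kB and TAK1 signalling, the pathway that Trim30a acts on, 0 were called and 2 were under 0.05 before adjustment. Among 39 tested Trim genes other than the members 0 were called by genotype and 14 were under 0.05 before adjustment. Of their log2 fold changes 20 were positive, with a median of 0.011. Trim21, Trim68 and Trim3 of this set lie within 2 Mb of the cluster and are also among the tested neighbours.

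By Pearson correlation of log2 CPM over the 12 tumors, the genes most like Trim12a were Ifi44l (r = 0.963), Rps18 (0.949) and H2-T22 (0.939), and those most like Trim5 were Ifi44l (0.943), H2-T22 (0.915) and E230034D01Rik (0.911). These values include the separation of the genotypes, and r within a genotype was lower. Within Arf6-null and within wild-type tumors, r of Trim12a was 0.15 and -0.48 with Ifi44l, 0.56 and 0.46 with Rps18, and 0.05 and -0.59 with H2-T22. That of Trim5 was 0.25 and 0 with Ifi44l, 0.25 and -0.18 with H2-T22, and 0.51 and 0.41 with E230034D01Rik. In wild type the Trim12a values rest on 0 or 1 count per library. For Trim30a the genes were Gm5970 (0.963), Il12rb1 (0.949), an interleukin-12 receptor chain of lymphocytes, and Fam53b (0.941). The value of r between Trim30a and Il12rb1 was 0.91 within Arf6-null and 1 within wild-type tumors (n = 6 each). These genes were picked for high r over the same tumors, so the values are a description only.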

How the data were processed

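Per the labels' protocols, Direct-zol columns gave the RNA and the TruSeq Stranded mRNA kit the libraries, which keep poly(A) RNA and its strand. The submitters' processing notes name STAR 2.7.3a, featureCounts 1.6.3, DESeq2 1.26.0 and GRCm38 (mm10), and leave the annotation release unstated. The authors deposited raw counts of reads per gene, without normalization. GENCODE M21 gave symbols to 55227 of 55487 identifiers. Replicates are numbered in accession order. The members, lists and tests were chosen with earlier results of these data known.

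Genes were filtered with filterByExpr, which asks for the CPM that 10 counts give in a library of median size, in at least 6 libraries. The filter kept 16225 genes with 99.9% of counts. Library totals were scaled with TMM factors and genes tested with edgeR 4.0.16 (quasi-likelihood F test, robust) in R 4.3.3, with Benjamini-Hochberg adjustment over all genes at 0.05. Alternatives used DESeq2 1.42.0 and limma 3.58.1. The score of a list is the mean log2 CPM (prior count of 2) of its tested genes. Named genes were all members, Arf6, called genes of each list (at most 4), the nearest tested and the called neighbours, and the 3 genes most correlated with Trim12a, Trim5 and Trim30a. In simulated counts for the genotype comparison (15995 genes) the test called 49% of 2-fold and 79% of 4-fold changes, with 6 false calls. Of 16014 genes simulated for the interferon score it called 58% of 2-fold and 79% of 4-fold changes per unit, with 4 false calls.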

Additional observations from a re-analysis of the deposited data

Results flagged for a closer look

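In 2 of 26 sets of 6 values, 1 library stood apart from the others of its genotype by Dixon's criterion, which chance meets in about 1 in 20 sets. Trim12a in Arf6-null replicate 4 was at 1.54 on the log2(CPM + 1) scale, below the 2.84 to 3.5 of the other Arf6-null tumors. Trim5 in wild-type replicate 3 was at 0.468 on that scale, above the 0.136 to 0.201 of the other wild-type tumors, on 9 counts.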

How the results depend on the processing

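No paired analysis was possible because, although the design text calls the tumors matched, no label says which tumor of one genotype goes with which of the other. Genes called by genotype numbered 186, against 2215 with DESeq2, 31 with a Y-linked score as covariate, 35 without the 3 muscle-rich wild-type libraries and 25 to 766 with 1 library left out. With upper-quartile scaling 87 were higher and 123 lower, and the median of all genes was -0.078 log2. Called neighbours numbered 1, against 4 with DESeq2, 0 with the Y-linked covariate, without the muscle-rich libraries or within 1 Mb, and 0 to 1 with 1 library left out. Type I interferon targets called numbered 0, against 1 with DESeq2 and 1 with the Y-linked covariate, and 0 with any 1 library left out. Members called on the interferon score numbered 0, against 3 with DESeq2, 2 with an interferon-gamma score (Trim12c and Trim30a) and 0 to 1 with 1 library left out (Trim30a without Arf6-null replicate 2). Members called on the leukocyte score numbered 1, against 0 with the Y-linked covariate, without the muscle-rich libraries, with a macrophage score or without wild-type replicates 5 and 6 (chosen after seeing the data), and 0 to 1 with 1 library left out. The cause of these differences was not tested. Members with a different slope by genotype numbered 0 under each alternative run. The Trim12c log2 fold change of -0.19 was 0.12 with the Y-linked covariate and 0.06 without the muscle-rich libraries, and -0.01 without wild-type replicate 5. Other log2 fold changes that moved by over 1.5 times were those of Trim34b, Trim30d, Trim30a and Trim6. Trim34b had -0.62, against -0.07 with the Y-linked covariate and -0.33 without the muscle-rich libraries. It had -0.38 without wild-type replicate 5 and -0.38 without Arf6-null replicate 1. Trim30d had 1.74, against 2.66 without wild-type replicate 5. Trim30a had 0.26, between 0.04 without Arf6-null replicate 2 and 0.58 with the Y-linked covariate. Trim6 had -0.69, between -1.16 without Arf6-null replicate 2 and -0.36 with the Y-linked covariate. The log2 fold change of Trim5 lay between 3.71 and 4.28 with 1 library left out. Trim12a, Trim5, Trim34b, Trim30c and Trim6 are limited by depth, with under 10 counts in 1 or more libraries.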

Other observations

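Besides Trim12a, the identifiers above 3 counts in all 6 Arf6-null libraries and in no wild-type library were CR974462.6 with 128 counts over the Arf6-null and 0 over the wild-type libraries, Gm34983 with 54 and 10 counts, and Gm6946 with 43 and 10 counts. The reverse, above 3 counts in all wild-type and in no Arf6-null library, was met by 4 identifiers (0.00721%). Within the cluster the pseudogene Trim30e-ps1 had 15 counts over the Arf6-null and 0 over the wild-type libraries.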
